A study of Mus musculus with 6 samples.

Results

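A set of 9 genes that mark the oligodendrocyte precursor and the early oligodendrocyte lineage was followed in the prefrontal cortex of mice, and none of them passed the test for a difference with housing. The 9 members, Pdgfra, Cspg4, Olig1, Olig2, Sox10, Gpr17, Enpp6, Bmp4 and Nkx2-2, were chosen by symbol from a deposited table of 23284 genes, of which 15258 had enough counts to test, all 9 members among them. Mice had spent 6 days alone (3 single-housed libraries) or in company (3 group-housed libraries). Both groups were wild-type C57BL/6 mice, an inbred strain, aged 8 to 10 weeks. Whether every library stands for a separate animal is not said in the labels, so each p-value rests on a spread between samples that may be technical.

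Oligodendrocyte precursors are dividing glial cells, spread through grey and white matter, that give rise to the myelin-forming oligodendrocytes. They carry the PDGF alpha receptor (Pdgfra) and the NG2 proteoglycan (Cspg4), and PDGF keeps them dividing. The transcription factors Olig2 and Sox10 specify the lineage and keep its identity, and Olig1, Sox10 and Nkx2-2 act as precursors differentiate and switch on myelin genes. Olig1, Olig2 and Sox10 are still made by mature oligodendrocytes. Gpr17, an orphan receptor, marks precursors committed to differentiate, and Enpp6, a choline phosphodiesterase, marks newly formed oligodendrocytes. Bmp4 is a secreted ligand that turns precursors towards the astrocyte fate and is itself made by cells at the step of commitment.

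Total counts were between 32902303 and 33428512 in single-housed and between 25858355 and 32088512 in group-housed libraries. Levels are in CPM (counts brought to 1 library size with TMM factors), and a difference is the log2 of single-housed over group-housed. Where 3 values are listed for a group, they stand in the order of its replicates 1, 2 and 3. The libraries differed in the level of striatal and myelin transcripts in both groups. The mean log2 CPM of 17 striatal markers was 6.06, 4.996 and 2.63 in single-housed libraries, against 4.93, 2.63 and 3.21 in group-housed ones. The mean log2 CPM of 25 mature myelin genes was 6.41, 6.30 and 5.28 in single-housed libraries, against 6.73, 5.29 and 5.93 in group-housed ones. Single-housed replicates 1 and 2 and group-housed replicate 1 were highest on both lists. In bulk tissue, fewer cells of a type and less RNA per cell cannot be told apart.

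Per exon length, Olig1 was the most abundant member, at 98.8 to 210 TPM over the 6 libraries, above the range of each other member. Sox10 (34.0 to 75.9 TPM), Gpr17 (36.8 to 46.7 TPM), Olig2 (23.4 to 37.7 TPM) and Pdgfra (22.04 to 25.4 TPM) followed, and the ranges of neighbours in that order overlapped. Cspg4 lay apart at 9.53 to 10.7 TPM. Enpp6 (3.16 to 7.66 TPM), Bmp4 (3.71 to 5.51 TPM) and Nkx2-2 (2.12 to 4.97 TPM) were lowest and overlapped with each other. By mean TPM, Olig1 stood above 90.2% of the genes tested and Nkx2-2 above 18.6%. All 9 were detected in every library, with 53 counts or more.

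Pdgfra and Cspg4, the surface markers of precursors, were the steadiest members. Pdgfra (chromosome 5, 75548316 to 75594229, plus strand, 24 exons, mm9) was at 54.1, 53.5 and 55.4 CPM in single-housed libraries, against 59.3, 52.9 and 52.5 CPM in group-housed ones. The groups overlapped and the highest library stood 1.13-fold above the lowest. The means were 54.3 ± 0.973 CPM with single housing and 54.9 ± 3.80 CPM with group housing (SD, n = 3 each), a log2 difference of −0.02 (SE 0.0735, 95% interval −0.18 to 0.15). Cspg4 (chromosome 9, 56712911 to 56747677, plus strand, 10 exons) was at 29.5, 26.7 and 27.4 CPM in single-housed libraries, against 27.8, 25.7 and 27.5 CPM in group-housed ones. Its groups also overlapped, over a 1.149-fold range, with a log2 difference of 0.05 (SE 0.0833, 95% interval −0.14 to 0.24). The ratio of Cspg4 to Pdgfra per exon length was 0.457, 0.418 and 0.413 in single-housed and 0.392, 0.406 and 0.438 in group-housed libraries. Fibroblasts also express Pdgfra and pericytes also express Cspg4. The summed level of 12 fibroblast markers was 151 to 181 CPM in single-housed and 101 to 171 CPM in group-housed libraries, and that of 12 pericyte and smooth muscle markers 192 to 234 CPM in single-housed and 182 to 205 CPM in group-housed libraries. No marker of either list was at 0 in all libraries, and their part in the levels of Pdgfra and Cspg4 was not tested.

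Gpr17, the receptor of committed precursors, varied more than Pdgfra and Cspg4. Its coefficient of variation over all libraries was 8.49%, against 4.59% for Pdgfra and 4.64% for Cspg4. Gpr17 (chromosome 18, 32102653 to 32109290, minus strand, 2 exons) was at 76.9, 75.2 and 65.2 CPM in single-housed libraries, against 83.8, 71.4 and 78.7 CPM in group-housed ones. The lowest library was single-housed replicate 3 and the highest group-housed replicate 1, 1.29-fold apart, and the groups overlapped. The log2 difference was −0.11 (SE 0.0908, 95% interval −0.31 to 0.10), the smallest unadjusted p of the 9 members (0.274). Its exons share 188 bases with Lims2 on the opposite strand, which had 346 to 566 counts per library against 2174 to 2519 for Gpr17, so a part of the Gpr17 count is uncertain.

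**Figure D1:**
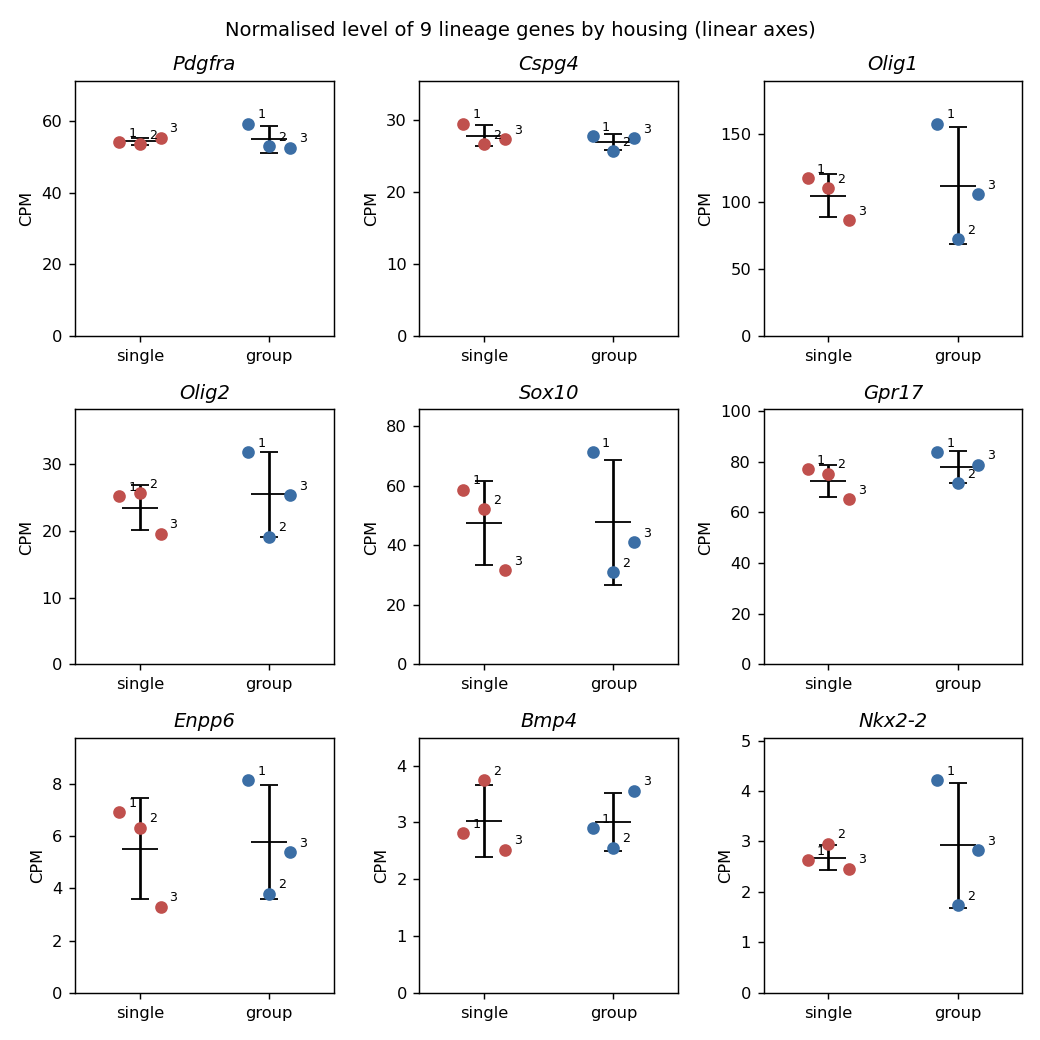
Normalised level (CPM, linear axes from 0) of each of the 9 genes in single-housed (red) and group-housed (blue) libraries; numbers are replicates, and black marks show the mean and SD of 3 libraries. Pdgfra and Cspg4 spread over 1.13-fold and 1.149-fold, Sox10 and Enpp6 over 2.31-fold and 2.46-fold, and the groups overlap in each panel.

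The bHLH factors Olig1 and Olig2 lie 41.1 kb apart on chromosome 16 and had their highest and lowest level in the same libraries. Olig1 (91270014 to 91272184, plus strand, 1 exon) was at 117, 109.9 and 86.1 CPM in single-housed libraries, against 158, 71.8 and 105 CPM in group-housed ones. Olig2 (91225795 to 91228922, plus strand, 2 exons) was at 25.1, 25.6 and 19.5 CPM in single-housed libraries, against 31.8, 19.1 and 25.3 CPM in group-housed ones. For both genes group-housed replicate 1 was highest and group-housed replicate 2 lowest, 2.20-fold apart for Olig1 and 1.66-fold for Olig2, so the group-housed libraries spanned all single-housed ones. The log2 differences were −0.10 for Olig1 (SE 0.247, 95% interval −0.66 to 0.46) and −0.12 for Olig2 (SE 0.182, 95% interval −0.53 to 0.30). Per exon length, Olig1 exceeded Olig2 by 5.23, 4.83 and 4.95-fold in single-housed and by 5.59, 4.22 and 4.67-fold in group-housed libraries.

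Sox10, the HMG-box factor that acts directly on myelin gene enhancers, showed one of the widest spreads. Sox10 (chromosome 15, 78985343 to 78994920, minus strand, 4 exons) was at 58.6, 52.1 and 31.7 CPM in single-housed libraries, against 71.3, 30.9 and 41.0 CPM in group-housed ones. Means were nearly equal, at 47.5 ± 14.0 CPM with single housing and 47.7 ± 21.0 CPM with group housing (SD, n = 3 each), while the libraries ranged over 2.31-fold. The log2 difference was −0.01 (SE 0.308, 95% interval −0.71 to 0.70), so differences of either sign within that interval remain compatible with these data. Relative to Pdgfra, per exon length, Sox10 stood at 2.69, 2.42 and 1.42 in single-housed and at 2.98, 1.45 and 1.94 in group-housed libraries.

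Nkx2-2, a homeodomain factor of the differentiating lineage, and Enpp6 were low in level and uneven. Nkx2-2 (chromosome 2, 147003282 to 147012138, minus strand, 3 exons) had 86, 99 and 82 counts (2.63, 2.96 and 2.46 CPM) in single-housed libraries, against 112, 53 and 89 counts (4.21, 1.74 and 2.83 CPM) in group-housed ones. Its antisense partner Nkx2-2as shares 278 exon bases and had 8 to 30 counts, so some of the Nkx2-2 count is uncertain. Enpp6 (chromosome 8, 48072279 to 48180249, plus strand, 8 exons) had 226, 211 and 110 counts (6.90, 6.31 and 3.30 CPM) in single-housed libraries, against 216, 116 and 169 counts (8.12, 3.80 and 5.37 CPM) in group-housed ones. In Enpp6, single-housed replicate 3 and group-housed replicate 2 were the low libraries, one in each group. The log2 differences were −0.12 for Nkx2-2 (SE 0.283, 95% interval −0.76 to 0.53) and −0.06 for Enpp6 (SE 0.322, 95% interval −0.79 to 0.67).

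Bmp4, the ligand, had another highest library than the members above. Bmp4 (chromosome 14, 47003196 to 47010274, minus strand, 4 exons) had 92, 125 and 84 counts (2.81, 3.74 and 2.52 CPM) in single-housed libraries, against 77, 78 and 112 counts (2.89, 2.55 and 3.56 CPM) in group-housed ones. Single-housed replicate 2 and group-housed replicate 3 were highest, single-housed replicate 3 and group-housed replicate 2 lowest, as for Enpp6, and the groups overlapped. The log2 difference was 0.01 (SE 0.200, 95% interval −0.45 to 0.46). Its exons share 86 bases with the antisense gene Gm15217, which had 0 to 2 counts. Counting error alone gives a coefficient of variation of 10.3% at this depth, against 17.1% observed over the 6 libraries.

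Start-site sequences are shown for a pair of steady members, Pdgfra and Cspg4, and a pair of uneven ones, Enpp6 and Nkx2-2, since OLIG1 and OLIG2 are bHLH proteins that bind E-boxes. Windows of 6 of the 9 members were taken by symbol from RefSeq's table of promoters (250 bases before to 50 after the start, GRCm38.p6, another build than the counts). Olig1, Sox10 and Gpr17 are not among these 6, and whether RefSeq's table holds them is not reported here. Each window shown is written 5′ to 3′ on the gene's strand with E-boxes (CANNTG, palindromic, so the same on both strands) in capitals. The end of the window was found in an annotated transcript of the gene for Cspg4, Enpp6 and Nkx2-2 and not for Pdgfra, so the Pdgfra window is not shown to lie at the start of the transcript counted.
Pdgfra, chr5:75152001-75152300, plus strand: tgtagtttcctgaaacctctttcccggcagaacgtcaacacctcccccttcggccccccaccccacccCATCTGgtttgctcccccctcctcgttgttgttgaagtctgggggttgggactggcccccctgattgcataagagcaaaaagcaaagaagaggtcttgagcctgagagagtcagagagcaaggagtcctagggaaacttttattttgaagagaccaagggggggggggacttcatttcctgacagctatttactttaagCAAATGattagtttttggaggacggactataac
Cspg4, chr9:56864854-56865153, plus strand: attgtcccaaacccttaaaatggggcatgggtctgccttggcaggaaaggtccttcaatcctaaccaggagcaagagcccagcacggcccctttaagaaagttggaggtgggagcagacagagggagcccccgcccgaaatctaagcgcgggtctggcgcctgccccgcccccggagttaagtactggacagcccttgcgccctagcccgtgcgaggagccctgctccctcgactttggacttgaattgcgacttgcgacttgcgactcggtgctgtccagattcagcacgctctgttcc
Enpp6, chr8:46986637-46986936, plus strand: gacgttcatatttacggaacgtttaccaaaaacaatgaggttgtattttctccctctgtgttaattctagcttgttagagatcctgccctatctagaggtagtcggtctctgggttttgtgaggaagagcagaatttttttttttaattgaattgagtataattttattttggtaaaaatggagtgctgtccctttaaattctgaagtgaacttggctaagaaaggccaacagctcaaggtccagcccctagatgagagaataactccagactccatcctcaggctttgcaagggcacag
Nkx2-2, chr2:147186353-147186652, minus strand: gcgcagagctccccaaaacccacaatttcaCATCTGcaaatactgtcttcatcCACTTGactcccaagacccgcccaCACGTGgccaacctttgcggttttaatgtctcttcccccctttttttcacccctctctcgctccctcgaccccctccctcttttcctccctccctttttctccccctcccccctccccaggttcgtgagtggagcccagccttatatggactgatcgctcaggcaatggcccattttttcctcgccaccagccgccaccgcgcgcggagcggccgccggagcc
The E-box was found 2 times in the Pdgfra window, 0 times in that of Cspg4, 0 times in that of Enpp6 and 3 times in that of Nkx2-2, so its number did not divide the steady from the uneven pair. Of 32851 promoters of the same length, 72.3% held at least 1. The SOX core ACAANG, searched on both strands and free to overlap an E-box, was found 1 time in the windows of Pdgfra and Enpp6 and 0 times in those of Cspg4 and Nkx2-2, and 41.2% of all promoters held it.

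In the test across all genes, 0 of the 9 members passed in either direction (edgeR's quasi-likelihood test, adjusted p = 0.9999 for each), as did 0% of the 15258 genes tested. At an unadjusted p under 0.05 there were 0 members and 1.56% of all genes, and DESeq2 and limma-voom called 0 members. By sign, 2 members were higher with single housing (50.7% of all genes) and 7 lower (49.3% of all genes), and the median difference was −0.06 on the log2 scale against 0.00 over all genes. That split depended on single libraries. It was 7 higher and 2 lower without group-housed replicate 1, and 5 higher and 4 lower without single-housed replicate 3. Without any other library, 1 to 2 members were higher. The groups did not overlap for 0 of 9 members, against 4.86% of the genes tested. The 95% intervals were narrowest for Pdgfra, Cspg4 and Gpr17 and widest for Enpp6, Sox10 and Nkx2-2.

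**Figure D2:**
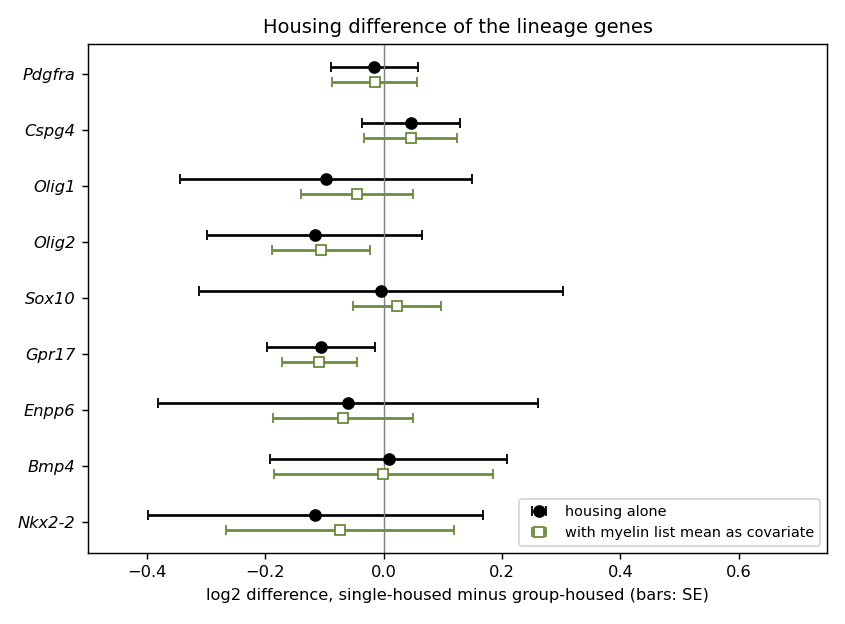
Log2 difference of each gene, single-housed minus group-housed, with bars of 1 SE, from housing alone (black circles) and with the mean of the mature myelin list as a covariate (green squares). The estimates lie between −0.12 and 0.05 in both fits, and the SE of Sox10 is 0.308 without and 0.0744 with the covariate. The fits ask different questions, since the covariate takes up what a gene shares with the myelin list.

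The members ranged from near steadiness to a spread between libraries like that of mature myelin transcripts. The spread of log2 CPM within groups was larger for Sox10 than for 99.1% of the genes within 4-fold of its level, for Olig1 than for 98.8% and for Enpp6 than for 97.9%. The same share was 21.1% for Pdgfra, 16.04% for Cspg4 and 61.4% for Gpr17. Group-housed replicate 1 was the highest library, and single-housed replicate 3 and group-housed replicate 2 the lowest ones, for 6 of 9 members (Olig1, Olig2, Sox10, Gpr17, Enpp6 and Nkx2-2), for 23 of 25 mature myelin genes and for 6.80% of all genes tested. That order was not among the planned results and is the one these genes show, so the counts are descriptive and no test. The median highest-to-lowest ratio was 2.84-fold for the 25 myelin genes, 1.66-fold for the 9 members, 1.52-fold for 20 other precursor markers and 1.29-fold for all genes tested.

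**Figure D3:**
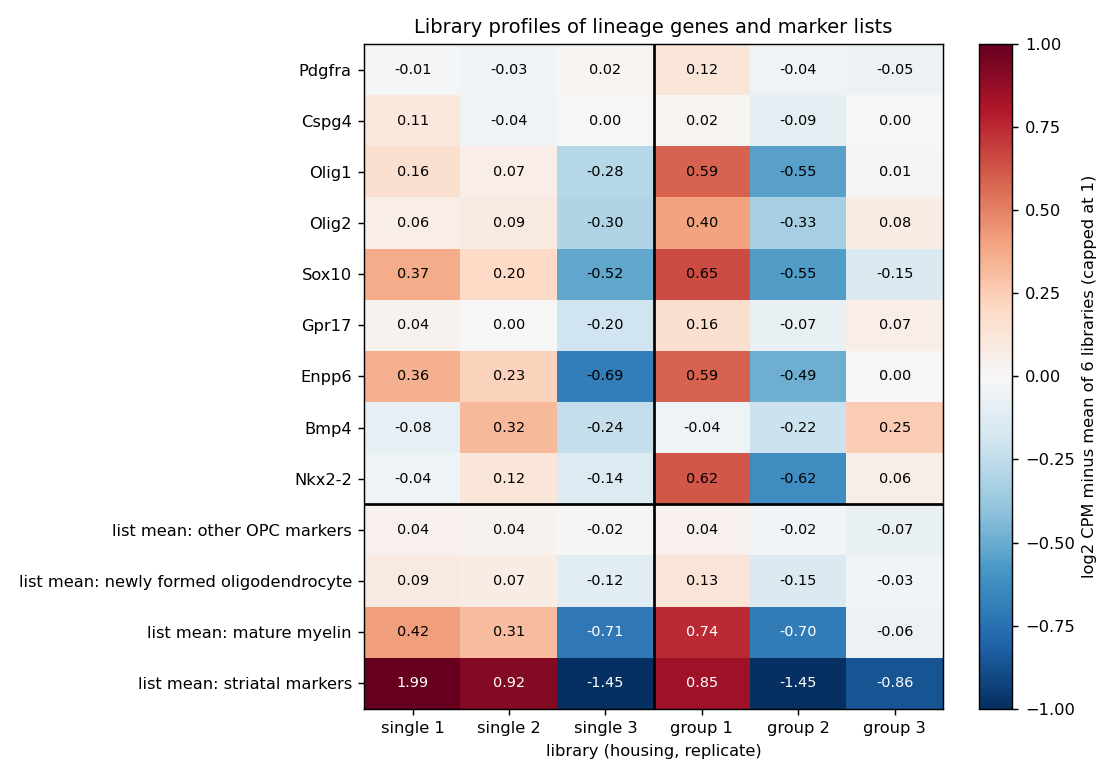
Log2 CPM of each gene, and of 4 marker lists as means, minus its mean over the 6 libraries, with single-housed libraries on the left and group-housed ones on the right; colour is capped at 1. Sox10 and Enpp6 share the high and low libraries of the mature myelin list, while Pdgfra, Cspg4 and the mean of other precursor markers stay near 0. Single genes of that last list spread more than its mean, with a median highest-to-lowest ratio of 1.52-fold.

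The slope of each gene on the myelin list mean, with housing in the model, was computed for each member; it was added after the data were seen. A slope of 1 means that a gene doubles where the myelin transcripts, on average, double. Enpp6 had a slope of 0.83 (SE 0.110, adjusted p = 0.00199), Sox10 one of 0.80 (SE 0.0677, adjusted p = 1.0e-04), Olig1 one of 0.61 (SE 0.0858, adjusted p = 0.00304) and Olig2 one of 0.43 (SE 0.0756, adjusted p = 0.0110), by edgeR's quasi-likelihood test over all genes. These 4 of 9 members passed with a positive slope, against 2.53% of the genes tested, and 0 members passed with a negative one, against 0.957%. Nkx2-2 had a slope of 0.56 (SE 0.175, adjusted p = 0.125), Bmp4 one of 0.20 (SE 0.174, adjusted p = 0.594) and Gpr17 one of 0.18 (SE 0.0580, adjusted p = 0.135). The slopes of Cspg4 (0.06, SE 0.0715, adjusted p = 0.696) and Pdgfra (0.05, SE 0.0645, adjusted p = 0.728) were smaller than their errors. Without group-housed replicate 1, the library richest in myelin transcripts, Sox10 alone of the 4 kept its call, with Enpp6 at an adjusted p of 0.0532, Olig1 at 0.132 and Olig2 at 0.222; the slopes were then 0.89 for Enpp6, 0.47 for Olig1 and 0.40 for Olig2. Olig2 also lost its call without group-housed replicate 2 (adjusted p = 0.0779). Striatal markers moved with the same libraries, 14 of 17 passing with a positive slope, the range of their summed level being 487 to 2253 CPM in single-housed and 524 to 1116 CPM in group-housed libraries. Their part in the slopes of the members was not tested.

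**Figure D4:**
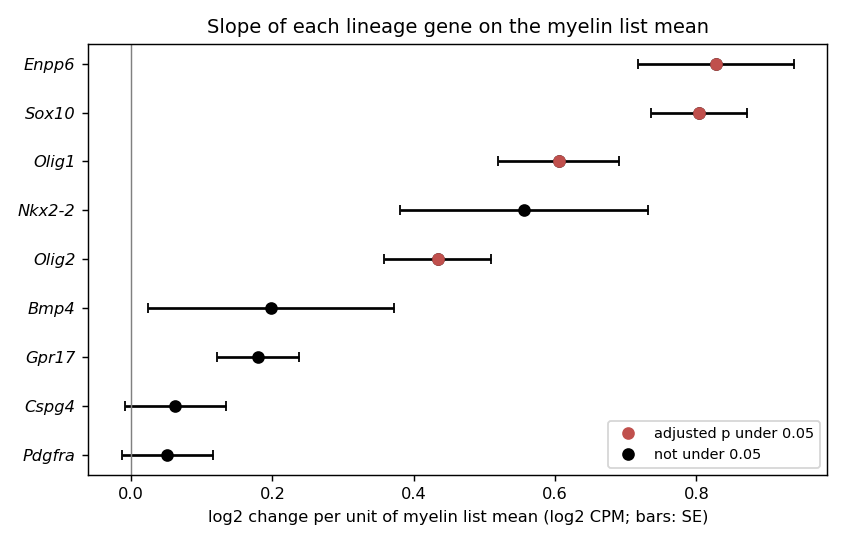
Slope of each gene on the mean log2 CPM of the mature myelin list over 6 libraries, with bars of 1 SE and red points where the adjusted p was under 0.05. Enpp6, Sox10, Olig1 and Olig2 lie between 0.43 and 0.83, and Pdgfra and Cspg4 near 0.

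**Figure D5:**
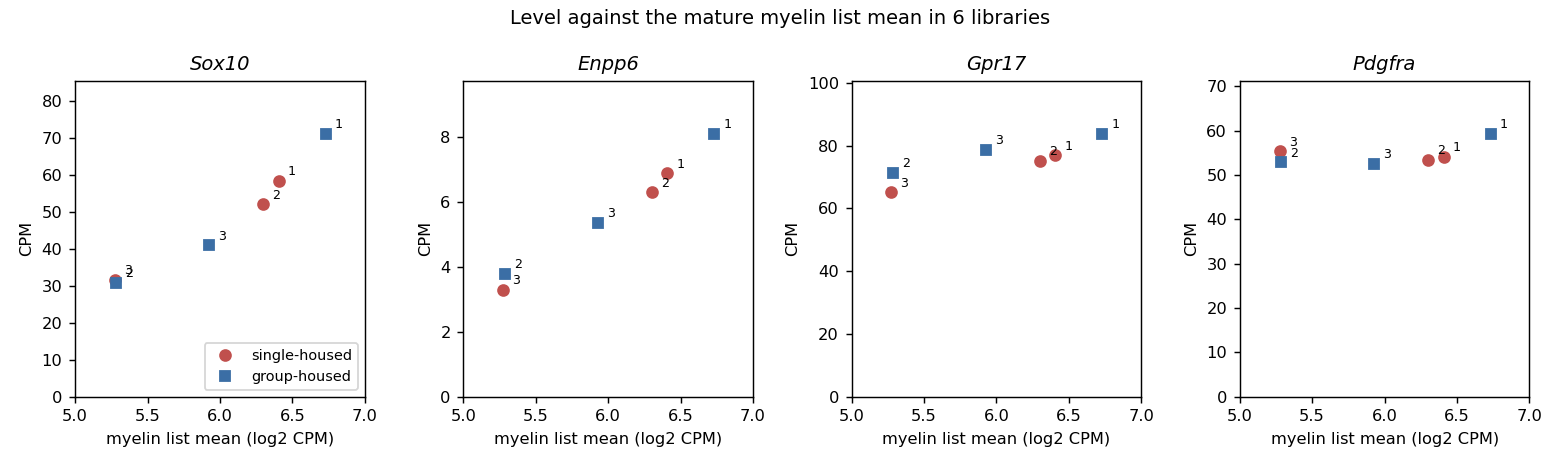
CPM of 4 of the genes (vertical axes, linear from 0) against the mean log2 CPM of the mature myelin list (horizontal axes) in the 6 libraries; red circles are single-housed, blue squares group-housed, and numbers are replicates. Sox10 and Enpp6 climb across the range of the myelin mean from 5.28 to 6.73, and Pdgfra stays between 52.5 and 59.3 CPM.

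With the myelin list mean in the model, the housing differences of the members remained small. Sox10 was at 0.02 (SE 0.0744), Enpp6 at −0.07 (SE 0.119) and Olig1 at −0.05 (SE 0.0948), each with a smaller SE than without the covariate. Gpr17 was at −0.11 (SE 0.0636, unadjusted p = 0.116). The covariate comes from the same libraries, so that fit asks for a housing difference at a given myelin level. A difference that a member shares with the myelin transcripts would be taken up by the covariate. The smaller SEs therefore do not narrow the differences from housing alone. With the striatal list mean in the model instead, 8 of 9 members were lower, against 49.1% of all genes, and 4 had an unadjusted p under 0.05, against 2.88% of all genes, namely Enpp6 (−0.43, SE 0.1498), Sox10 (−0.31, SE 0.125), Gpr17 (−0.18, SE 0.0738) and Olig2 (−0.27, SE 0.121). None of these passed after adjustment over all genes (edgeR, adjusted p = 0.9995 for each), and 25 of 25 myelin genes were lower in that fit. The mean log2 CPM of Pdgfra and Cspg4 minus that of the myelin list was −0.71 ± 0.624 with single housing and −0.71 ± 0.655 with group housing (SD, n = 3 each). That difference of 0.00 was not stable to single libraries: it was −0.36 without single-housed replicate 3, −0.33 without group-housed replicate 1 and 0.32 without group-housed replicate 2.

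Profiles over the 6 libraries were compared by the root mean square difference of centred log2 CPM, where 0 is identity. Among genes within 4-fold of its level, Sox10 was nearest to Rhog (0.0450), Mcam (0.0541) and Plekhg3 (0.0580). Enpp6 was nearest to Prr5l (0.0529), Arsg (0.0633) and, like Sox10, Plekhg3 (0.0668). Pdgfra was nearest to 0610037L13Rik (0.0135) and Zw10 (0.0150), both flat profiles. Among members, the best ranks were those of Sox10, 17th of all genes tested in likeness to Enpp6 (0.1003), and of Olig1, 8th in likeness to Nkx2-2 (0.113). In the other direction Enpp6 ranked 35th in likeness to Sox10 and Nkx2-2 37th in likeness to Olig1. Other pairs lay far apart. By distance, Enpp6 stood at percentile 95.6 of all genes from Pdgfra, and Sox10 at percentile 91.1 from Gpr17.

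Other genes of the lineage gave no call for housing. Of 20 further precursor markers, 10 were higher and 10 lower with single housing (median log2 difference 0.00). Cacng4, an auxiliary subunit of AMPA receptors, was at 0.32 (SE 0.160) and Emid1 at 0.22 (SE 0.119). Emid1 was the 1 gene of that list whose groups did not overlap, in the higher direction, against 2.46% of all genes. Of 18 genes of newly formed oligodendrocytes, 8 were higher and 10 lower (median −0.01), with Mycl1 at 0.18 (SE 0.0959), Man1a at 0.18 (SE 0.109) and Chn2 at −0.09 (SE 0.0721). Of 25 mature myelin genes, 9 were higher and 16 lower (median −0.04), with Enpp2 at −0.10 (SE 0.0678), Adamts4 at 0.11 (SE 0.313) and Opalin at −0.12 (SE 0.406). Of 22 further transcription factors of the lineage, 13 were higher and 9 lower (median 0.02), with Yy1 at −0.20 (SE 0.0854), Zfp536 at 0.25 (SE 0.191) and Sox11 at 0.21 (SE 0.185). For Chn2 and Yy1 the groups did not overlap either, in the lower direction, which was so for 2.4% of all genes. All genes named in these lists had an adjusted p of 0.9999 by edgeR's quasi-likelihood test.

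Slopes on the myelin list mean were also computed for these lists. Of the 22 further transcription factors, 5 passed with a positive slope, among them Nkx6-2, a homeodomain factor of oligodendrocytes (1.11, SE 0.135), the row Gm98, the older symbol of the myelin regulator Myrf (0.83, SE 0.0838), and the SoxE factor Sox8 (0.42, SE 0.0911), named after their values were seen; Gm98 is also in the myelin list. Of the 20 further precursor markers, 0 passed with a positive slope and 1, Susd5, with a negative one (−0.45, SE 0.0794). Slopes in that list ran from −0.47 to 0.44, so its flat mean covers genes that moved in both directions. Of the 18 genes of newly formed oligodendrocytes, 3 passed with a positive slope, with Bcas1, which the myelin list also holds, at 0.91 (SE 0.0650).

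Ligands and partners of Pdgfra and Bmp4 did not pass the housing test either. Pdgfb, which encodes a ligand of PDGF receptors, was at 35.3, 32.9 and 35.7 CPM in single-housed libraries, against 39.7, 40.004 and 46.4 CPM in group-housed ones. The single-housed values all lay under the group-housed ones, which was so in the lower direction for 2.4% of all genes, with a log2 difference of −0.28 (SE 0.0874, unadjusted p = 0.0114, edgeR adjusted p = 0.9999). Pdgfa, the ligand that drives precursor division, was at −0.14 (SE 0.0902) and the receptor gene Pdgfrb at 0.09 (SE 0.101). Of 22 BMP pathway genes, 15 were higher and 7 lower (median 0.04), with the antagonist Nog at −0.26 (SE 0.124), the ligand Bmp7 at 0.24 (SE 0.130) and the signal transducer Smad4 at 0.17 (SE 0.100). The groups did not overlap for Bmp7, in the higher direction, which was so for 2.46% of all genes. Of 12 cell cycle genes tested, 7 were higher and 5 lower (median 0.13). Those counts turned to 5 higher and 7 lower without single-housed replicate 1 (median −0.06). They were 9 higher and 3 lower without group-housed replicate 1 (median 0.33). The cyclin gene Ccnd1 had the smallest p of the 12 in the fit of all libraries, at −0.20 (SE 0.0856, unadjusted p = 0.0446, edgeR adjusted p = 0.9999). The replication helicase gene Mcm5 was at 0.20 (SE 0.121). Mki67, a marker of dividing cells, was at 3.97, 4.16 and 0.630 CPM in single-housed libraries, against 2.10, 1.146 and 1.68 CPM in group-housed ones (log2 difference 0.83, SE 0.562). Of markers of other brain cells, 10 for astrocytes, 10 for microglia and 10 for neurons, 0 passed the housing test, and their median log2 differences were −0.01, −0.08 and −0.01. Among the astrocyte markers the connexin gene Gjb6 lay lower in each single-housed library than in any group-housed one (log2 difference −0.28, SE 0.0832, unadjusted p = 0.00938, edgeR adjusted p = 0.9999). Striatal markers were higher with single housing in 17 of 17 cases (median 1.06) and fibroblast markers in 11 of 11 tested (median 0.18), with 0 called in either list. The fibroblast count depended on single libraries. Without group-housed replicate 1, 6 were higher and 5 lower, and without single-housed replicate 3, 7 were higher and 5 lower. Without single-housed replicate 1, 16 striatal markers were higher and 1 lower (median 0.31).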

How the data were processed

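The authors deposited 1 table of raw read counts, not normalized, with a column for each library; the layout is that of featureCounts, per the file headers. Per the submitters' processing notes the tools were FastQC, STAR and featureCounts and the build mm9. Tool versions, annotation release and strand setting: not given in the sources used here, so reads of a member and of an antisense partner cannot be told apart. Libraries were made with a stranded kit that selects polyadenylated RNA, per the labels' protocols. The deposited length of each gene, in exon bases per the file headers, was used for TPM.

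All 9 members were found by symbol. Low counts were filtered with filterByExpr (minimum count 10, minimum total 15). Housing was tested with the quasi-likelihood F-test of edgeR 4.0.16 (R 4.3.3) with TMM normalization and Benjamini-Hochberg adjustment over all 15258 genes tested, at a threshold of 0.05. Standard errors came from the F statistic. Mean log2 CPM used a prior count of 2. Alternatives were DESeq2 1.42.0, limma-voom (limma 3.58.1), other filters and size factors, covariates and leaving out libraries. The slope on the myelin list mean was added after the data were seen. The fits were tried on simulated counts with a common dispersion for all genes. That trial checks the code and does not carry over to the uneven spread of these members. The members and lists were chosen with earlier results of these data known. Besides the members, the rule for named genes took up to 3 genes of smallest p from each list, and for likeness the nearest 3 profiles among genes within 4-fold of a member's level. Some genes that this rule took are not reported here.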

Additional observations from a re-analysis of the deposited data

How the results depend on the processing

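No member was called for housing under any of the 15 alternatives, and 113 of 135 estimates kept their sign. Signs turned for Pdgfra without the 3 libraries highest in striatal markers (0.071) and for Nkx2-2 in the same fit (0.11), for Sox10 with the replicate block (0.029), limma-voom (0.041) and the myelin covariate (0.022), and for Bmp4 with limma-voom (−0.00035), the striatal covariate (−0.055), the myelin covariate (−0.0010) and without those 3 libraries (−0.28). Over the fits that leave out 1 library, differences ran from −0.047 to 0.043 for Pdgfra, −0.33 to 0.24 for Olig1, −0.29 to 0.076 for Olig2, −0.24 to 0.40 for Sox10, −0.29 to 0.26 for Enpp6, −0.16 to 0.15 for Bmp4 and −0.38 to 0.23 for Nkx2-2. The cause was not tested. Cspg4 stayed positive and Gpr17 negative in all 15. Over all genes, 8 were called by DESeq2, 6 with the myelin covariate, 4 without the 3 libraries highest in striatal markers (1 against 2, the lone library being assumed to vary like the others) and 0 to 1 without 1 library.

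The slope of Pdgfra on the myelin mean was −0.038 to 0.12 when 1 library was left out, and 1 to 5 members passed, 1 of them without group-housed replicate 1. Replicate numbers are not said to mark a shared litter, batch or day. Deviations of same-numbered libraries correlated at 0.27, −0.32 and 0.17, and those of unlike-numbered libraries at −0.43 to 0.35. Since the libraries also differed in striatal and myelin transcripts, these values cannot tell whether the numbers pair the libraries. With the replicate block 0 members and 0 genes were called. Counting error alone gives a coefficient of variation of 10.3% for Bmp4 and 10.7% for Nkx2-2, against 17.1% and 29.0% observed over the 6 libraries.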
